A study of Mus musculus with 16 samples.

Results

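The response of wild-type mouse airway epithelium to a scratch was described across all measured genes. It rests on 8 of the 16 cultures of the series: 4 wild-type cultures that were scratched and 4 wild-type cultures that were left uninjured, with 1 Affymetrix expression array per culture. All came from C57BL/6 mice and were grown at an air-liquid interface, where the upper surface of the cell layer is exposed to air and the lower one is fed with medium. A scratched culture had received 3 parallel scratches from a p-200 pipet tip. Every culture, scratched or not, was kept without serum for 24 h before its total RNA was taken. The other 8 cultures, 4 uninjured and 4 scratched, lacked Mmp7, the gene of the secreted metalloproteinase matrilysin; they entered the same model to estimate the spread of each gene and are compared with wild type at the end. The labels give neither the time between scratching and harvest nor the animals behind each culture, so p-values measure only the spread between these cultures, and early and late parts of a response cannot be separated.

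The airway is lined by a pseudostratified layer of basal cells, which are its stem cells, and of secretory club and goblet cells and multiciliated cells above them. When the layer is broken, cells at the edge flatten, lay down a provisional matrix rich in fibronectin, rebuild their actin cytoskeleton and crawl over the gap. Cells behind the edge divide, and the epithelium releases chemokines that call neutrophils, lipid mediators such as prostaglandins, antimicrobial proteins and mucus. A scratched dish contains both edge cells and distant intact cells, and an array averages over them, so that a larger number of cells making an RNA and more of that RNA per cell cannot be told apart.

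The arrays carried the markers of airway epithelium. In uninjured cultures the mean log2 intensity was 12.78 ± 0.13 for Sox2, the transcription factor of proximal airway, 11.18 ± 0.07 for the basal keratin Krt5, 14.58 ± 0.06 for the luminal keratin Krt19 and 13.98 ± 0.14 for the secretoglobin Scgb3a1 (SD, n = 4). Background, taken as the 95th percentile of spiked-in control probe sets on arrays that did not receive them, was 2.97, and 11655 of 18193 genes had a mean above it. Several defining markers of other cell types were below it in uninjured cultures: Ptprc of leukocytes at 2.36, Col1a1 and Pdgfra of fibroblasts at 2.68 and 2.89, and Pecam1 and Cdh5 of endothelium at 2.08 and 2.30. Others were above it, with 9 of 30 leukocyte, 6 of 22 fibroblast, 7 of 17 smooth muscle and cartilage and 4 of 18 endothelial markers on that side. So were 5 of 12 neuronal and glial markers and most alveolar ones, 18 of 21. Nkx2-1, a lung lineage factor, was also below background (2.68). Mmp7 itself was below background in wild type, at 2.13 to 2.25 on the 8 arrays, and at 2.13 to 2.59 on the 8 arrays of Mmp7-null cultures, so these arrays hold no check of the genotype labels.

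The first principal component of the 8 wild-type arrays took 40.4% of their variance and placed all scratched arrays (10.7 to 23.3) apart from all uninjured ones (-18.7 to -11.7). The second, with 23% of the variance, was spanned by scratched replicates 3 and 4 (19.2 and -19.9). Scratched 3 had the lowest upper quartile of intensity, 115 against 125.8 to 134 on the other wild-type arrays. Scratched 4 had the widest gap between the 3' and 5' ends of the actin control transcript, 2.62 on the log2 scale against 1.53 to 1.93. Each of these arrays correlated less with its own group (mean r of 0.9909 and 0.992) than the remaining wild-type arrays did (0.9934 to 0.9963). Counts are therefore also given without these arrays. Spiked-in controls further set replicate 1 of both wild-type groups apart from the other 6 arrays, equally in both groups; what this marks is not stated.

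Scratching changed 883 of 18193 genes at an adjusted p under 0.05 (limma, Benjamini-Hochberg), which is 4.85% of genes tested. Of these 464 were higher (2.55%) and 419 lower (2.30%), and 2993 genes had an unadjusted p under 0.05. Among the 11655 genes above background the shares were 3.95% higher and 3.58% lower, and these are the nearer yardstick for lists of genes that airway cells express. Increases were the larger changes: their median was 0.57 on the log2 scale and 95 exceeded 2-fold, against a median of -0.40 and 15 genes past 2-fold among decreases. Without scratched 3 and 4 there were 351 increases and 266 decreases. Centring arrays on their medians gave 344 increases and 594 decreases, so the balance of the directions depends on the scaling. Of the 883 calls, 479 (300 higher and 179 lower) held with any 1 of the 8 wild-type arrays left out. Among all 18193 genes, the scratched arrays lay all above the uninjured ones in 766 and all below them in 1058. The groups overlapped in only 50 of the 883 called genes, so a lack of overlap adds little to a call.

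**Figure D1:**
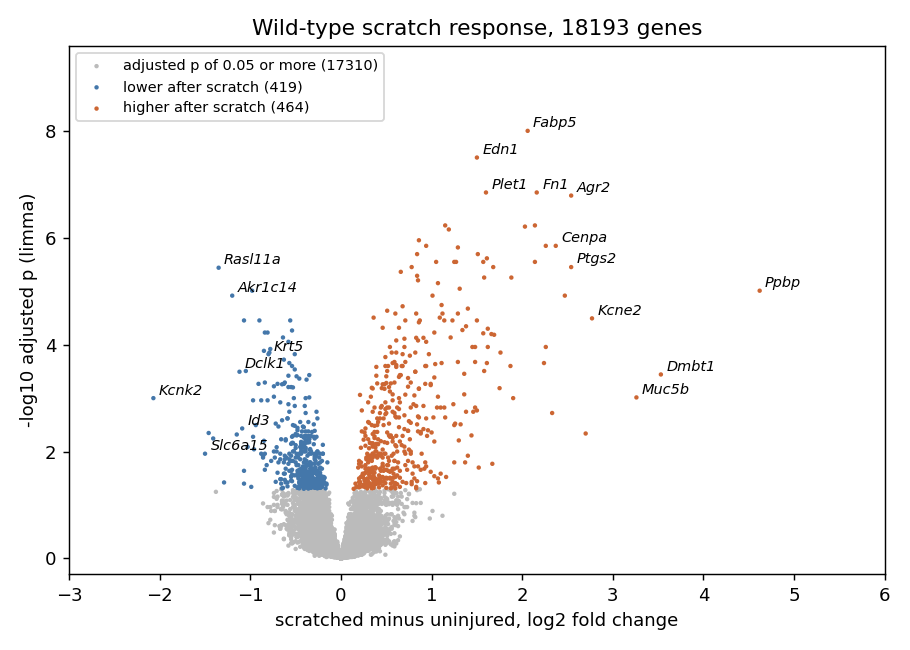
Each point is 1 of 18193 genes, with the log2 fold change of scratched over uninjured wild-type cultures (4 arrays each) on the x axis and -log10 of the limma adjusted p on the y axis; 464 genes are drawn as higher, 419 as lower and the rest in grey. Increases reach 4.62 (Ppbp) and decreases -2.07 (Kcnk2), and Fabp5 has the lowest adjusted p.

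The 3 largest increases were of genes of secreted proteins. Ppbp, the precursor of a CXC chemokine that attracts neutrophils, read 5.16, 5.30, 5.49 and 4.19 on the uninjured arrays and 10.11, 9.67, 9.51 and 9.34 on the scratched ones. Dmbt1, a scavenger receptor family protein of mucosal secretions that binds bacteria, read 5.67, 6.72, 6.45 and 5.81 uninjured and 9.43, 9.64, 9.74 and 9.97 scratched. Muc5b, the gel-forming mucin that airways secrete constantly and need for clearance, read 6.41 to 6.65 uninjured and 9.43 to 10.07 scratched. In all 3 genes every scratched array lay far above every uninjured array, and scratched 3 and 4 were not apart from the others. The fold changes were 24.6 for Ppbp (log2 4.62, SE 0.39, adjusted p = 9.7e-06), 11.6 for Dmbt1 (log2 3.53, SE 0.46, adjusted p = 0.00036) and 9.56 for Muc5b (log2 3.26, SE 0.48, adjusted p = 0.00097).

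The 25 largest increases held genes of varied roles. Agr2, the endoplasmic reticulum protein that mucins need to fold, read 8.98, 9.29, 9.16 and 9.18 uninjured and 11.68, 11.66, 11.73 and 11.70 scratched, a spread within the scratched group of 0.03 (SD) against a rise of 2.54 (SE 0.13, adjusted p = 1.6e-07). Fabp5, an intracellular fatty acid carrier of migrating and dividing epithelium, read 7.25 to 7.57 uninjured and 9.32 to 9.53 scratched, and had the lowest adjusted p of all genes (2.06, SE 0.08, adjusted p = 9.8e-09). Calcb, a calcitonin gene-related peptide, rose by 1.69 (SE 0.18), with the scratched arrays between 9.88 and 9.92. The whey acidic protein family member Wfdc1 (2.47), the leucine-rich glycoprotein Lrg1 (2.33), the kinase scaffold Akap12 (2.24), the galectin Lgals1 (1.75) and the protein C receptor Procr (1.68) rose as well. Ccr2, a chemokine receptor of monocytes, rose by 1.88 by its brightest probe set, while its other probe sets gave 0.50, 0.29 and 0.06. Edn1, the precursor of the peptide endothelin-1, was outside the 25 and is named for its adjusted p, seen in the data: it read 6.89, 6.93, 7.0 and 7.16 uninjured and 8.49, 8.51, 8.45 and 8.54 scratched (1.5, SE 0.07, adjusted p = 3.1e-08).

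**Figure D2:**
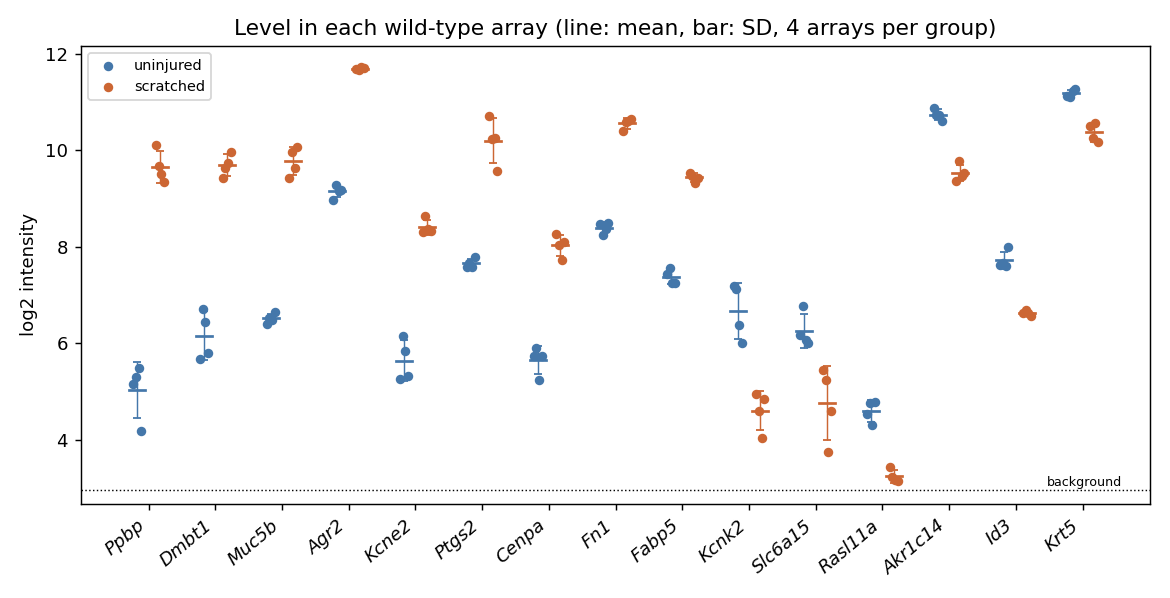
Log2 intensity of 15 genes on each of the 4 uninjured and 4 scratched wild-type arrays; points are arrays, lines group means and bars the SD. The groups do not overlap for any gene drawn, from Ppbp (means of 5.04 and 9.66) to Krt5 (11.18 and 10.37). All genes drawn but Krt5 were named by a rule that requires this, so the lack of overlap is no further result.

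Many genes of mitosis rose. Progress through mitosis is driven by B-type cyclins with Cdk1, by the Aurora and Polo kinases and by the anaphase-promoting complex, and it uses dedicated kinesins, spindle proteins and kinetochore proteins. Of 79 measured genes in 3 lists of such proteins, 47 rose (59.5%, against 2.55% of all genes), 0 fell and 32 did not pass; 71 had a positive estimate and the median was 0.63, against 0.008 over all genes. By role, 14 of 25 mitotic cyclins and entry kinases rose (median 0.66), 19 of 27 kinesins and spindle proteins (0.96) and 14 of 27 kinetochore and checkpoint proteins (0.59). Without scratched 3 and 4 the number was 46 and the median 0.75, and 42 of the 47 kept their call with any 1 array left out.

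Cenpa, the histone that marks centromeres, read 5.73, 5.91, 5.24 and 5.74 uninjured and 8.26, 8.04, 7.73 and 8.09 scratched (2.37, SE 0.16). Cenpf, a kinetochore protein that accumulates in G2, read 5.79, 5.81, 5.02 and 5.76 uninjured and 7.73, 7.90, 7.59 and 7.72 scratched (2.14, SE 0.16). Ccnb2, cyclin B2, read 6.02, 5.92, 5.57 and 6.10 uninjured and 8.03, 8.02, 7.68 and 7.98 scratched (2.03, SE 0.12). In all 3 the groups were apart by more than 1.5 on the log2 scale, and replicate 3 was the lowest array of both groups. The ubiquitin-conjugating enzyme Ube2c, which serves the anaphase-promoting complex, read 7.46 to 7.84 uninjured and 9.48 to 9.90 scratched (2.14, SE 0.13). Its activator Cdc20 read 9.32 to 9.77 and 10.44 to 10.74 (1.03, SE 0.11). The entry kinases Plk1 (5.06 to 5.89 and 6.87 to 7.35) and Cdk1 (7.91 to 8.14 and 8.60 to 8.88) rose by 1.62 and 0.71. Among motor and spindle genes, Cenpe rose by 1.76, Nusap1 by 1.66, Kif20a by 1.61 and Aspm by 2.26, and of the checkpoint kinases Bub1b rose by 1.29. Bub1, at 0.87 (SE 0.24), just missed the threshold (adjusted p = 0.051); scratched 3 read 6.01 and the other scratched arrays 6.92 to 7.04.

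No gene of the preceding steps of the cycle passed as higher in the G1/S list. Of 39 genes of the G1/S transition and DNA replication, 0 passed as higher and 2 as lower, with a median of -0.12. Mcm2, a subunit of the replicative helicase, read 7.20, 7.33, 7.65 and 7.62 uninjured and 7.02, 7.14, 6.76 and 6.94 scratched (-0.48, SE 0.13, adjusted p = 0.048). This call was lost with any 1 of 6 arrays left out (uninjured 2, 3 and 4, scratched 1, 3 and 4; adjusted p up to 0.14), and without scratched 3 and 4 none of the 39 passed. The replication clamp Pcna differed by -0.18 (SE 0.07, adjusted p = 0.19). Of 20 D cyclins, CDK inhibitors and Myc genes 2 rose and 1 fell, with a median of 0.01. The CDK inhibitors Cdkn2c (0.30, SE 0.08, adjusted p = 0.042) and Cdkn2b (0.27, SE 0.07, adjusted p = 0.044) were higher and the Myc family gene Mycl lower (-0.40, SE 0.09, adjusted p = 0.026). None of these calls held with any 1 array left out: Cdkn2c lost it without any array but uninjured 2, Cdkn2b without any but scratched 2, and Mycl without uninjured 1, 2 or 4 or scratched 1 or 2 (adjusted p up to 0.13, 0.12 and 0.082). Better known members did not pass: Ccnd1 (cyclin D1) differed by 0.19 (SE 0.13), Myc by -0.03 (SE 0.12), Ccne1 (cyclin E1) by 0.26 (SE 0.16) and the CDK inhibitor Cdkn1a by -0.18 (SE 0.09), each with an adjusted p of 0.35 or more. Dimmer probe sets gave -0.78 for Cdkn1a, 0.41 and 0.40 for Ccnd1 and -0.06 for Ccne1. Cdkn1a and Ccnd1 therefore cannot be read as unchanged. The difference between mitotic and G1/S genes was not itself tested.

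**Figure D3:**
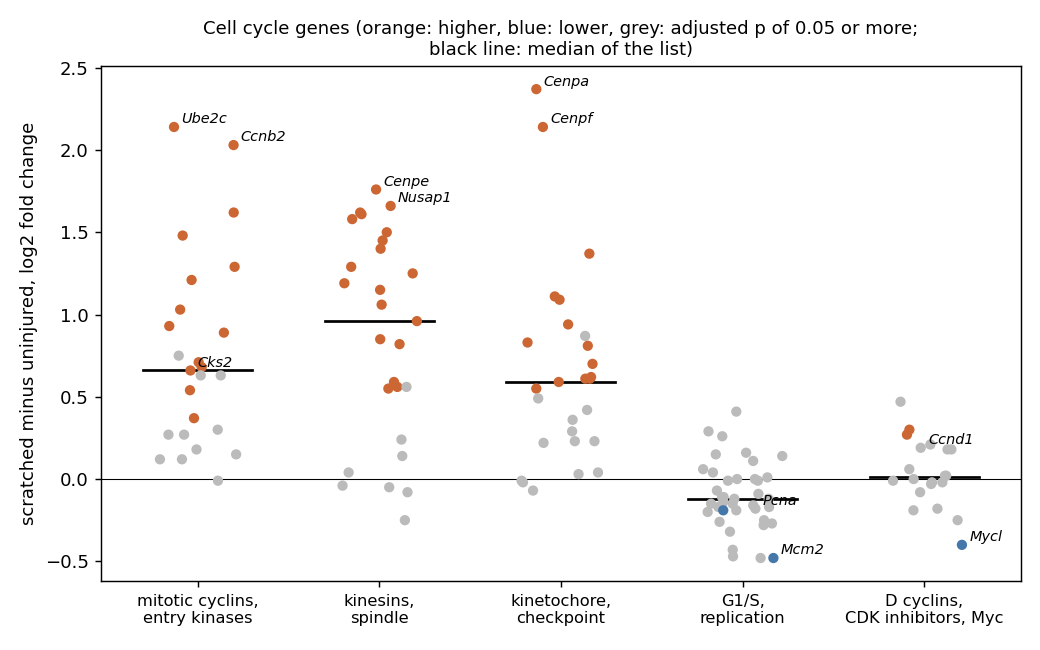
Log2 fold change of scratched over uninjured wild-type cultures (y axis) for each measured gene of 5 cell cycle lists (x axis); colour marks genes called higher or lower and the black line the median. Medians are 0.66, 0.96 and 0.59 for the 3 mitotic lists and -0.12 for G1/S and replication.

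Promoters of mitotic genes are known for 2 short elements, the cell cycle genes homology region (CHR, searched as TTTGAA) and CCAAT boxes (CCAAT), through which the DREAM complex and the factor NF-Y act. RefSeq promoters (GRCm38.p6, 250 bases before to 50 after the first listed start) were at hand for 14367 of the genes measured, and both strands were searched. A CHR lay in 28 of 37 promoters of the mitotic genes that rose (75.7%), in 10 of 25 of the mitotic genes that did not pass (40%), in 4 of 33 G1/S genes (12.1%) and in 13.3% of all promoters. CCAAT was in 75.7%, 64%, 60.6% and 38.2% of the same groups. The 120 bases before the start are shown for 4 mitotic genes that rose, picked after their matches were seen because both elements lie close together there; capitals mark TTTGAA or its complement TTCAAA, and CCAAT or its complement ATTGG. They are Cdk1 (chr10:69352913-69353032, minus strand), Cdc20 (chr4:118437344-118437463, minus strand), Ube2c (chr2:164769809-164769928, plus strand) and Cks1b, the small Cdk subunit, which rose by 0.68 (chr3:89418292-89418411, minus strand).
Cdk1: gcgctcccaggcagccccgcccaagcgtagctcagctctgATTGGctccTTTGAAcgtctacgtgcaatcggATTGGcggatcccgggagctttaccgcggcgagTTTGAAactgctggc
Cdc20: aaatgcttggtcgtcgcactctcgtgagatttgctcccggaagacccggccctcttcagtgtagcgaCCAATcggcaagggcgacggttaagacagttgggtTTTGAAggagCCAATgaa
Ube2c: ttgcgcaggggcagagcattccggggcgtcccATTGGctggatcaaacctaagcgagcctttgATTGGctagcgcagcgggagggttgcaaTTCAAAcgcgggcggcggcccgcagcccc
Cks1b: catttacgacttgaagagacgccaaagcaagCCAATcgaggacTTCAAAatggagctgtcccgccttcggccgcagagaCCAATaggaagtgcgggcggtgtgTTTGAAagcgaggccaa
Each of the 4 windows holds 2 CCAAT boxes, with 1 CHR in Cdc20 and Ube2c and 2 in Cdk1 and Cks1b. A match is a run of letters and no evidence of binding in these cultures.

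Signals to neutrophils and other leukocytes rose in single strong genes and in several moderate ones. Of 32 chemokines and their receptors 6 rose and 1 fell (18.8% and 3.12%), and of 41 cytokines and growth factors 4 rose and 1 fell (9.76% and 2.44%). Of 22 feedback genes of NF-kB, the main inflammatory transcription factor, 4 rose (18.2%) and 0 fell. The medians were small (0.06 for chemokines and 0.14 for NF-kB feedback). After Ppbp, the neutrophil chemokine Cxcl3 read 4.68, 4.52, 4.34 and 4.56 uninjured and 5.40, 5.58, 4.97 and 6.26 scratched (1.03, SE 0.19, adjusted p = 0.0065). Cxcl2 read 8.37 to 8.48 uninjured and 9.04 to 9.11 scratched (0.64, SE 0.10, adjusted p = 0.0016). Cxcl5 (11.97 to 12.23 and 12.59 to 12.75) rose by 0.56 and Cxcl15 by 0.62. Cxcl1 read 8.31 to 8.42 uninjured and 8.96 to 9.35 scratched, with no overlap, but the SE of 0.29 rests on all 16 arrays and its difference of 0.81 did not pass (adjusted p = 0.16).

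The myeloid growth factors Csf2 and Csf3, which drive granulocyte and macrophage production, rose by 1.38 (SE 0.14, adjusted p = 4.5e-05) and 1.07 (SE 0.16, adjusted p = 0.00094). Csf2 read 4.92 to 5.50 on uninjured and 6.24 to 6.86 on scratched arrays. The classical alarm cytokines were not part of this: Il6 was below background in both groups (2.29 and 2.31), Il1b was at or below it (2.97 and 2.91), and Tnf differed by 0.24 (SE 0.15, adjusted p = 0.47). The 4 NF-kB feedback genes that rose, of 22 measured, had little spread between arrays. Nfkbiz, an atypical IkB needed for secondary inflammatory genes, read 10.60 to 10.74 uninjured and 11.44 to 11.61 scratched (0.84, SE 0.06, adjusted p = 2e-06). Tnfaip3, the ubiquitin editor A20, read 8.04 to 8.30 and 8.85 to 9.01 (0.78, SE 0.06), Tnfaip2 rose by 0.82 and Nfkbia, which encodes IkB alpha, by 0.38 (SE 0.07). Nfkbia lost its call without scratched 3 and 4. Dimmer probe sets gave 0.90 and 0.36 for Nfkbiz and 0.15 for Tnfaip3.

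Of 11 promoters of chemokine, cytokine and NF-kB feedback genes that rose, 5 (45.5%) held an NF-kB site by its published consensus on either strand. Among all promoters 9.74% did. An AP-1 site (TGANTCA) lay in 3 (27.3%, against 6.29%) and a TEAD site (GGAATG) in 3 (27.3%, against 13.1%). A CArG box, searched by its consensus, lay in 1 (9.09%, against 1.37%). CHR and CCAAT were in 9.09% and 27.3%, below their shares of 13.3% and 38.2% in all promoters. A sterol element (TCACNCCAC) lay in 0 of these and in 0 of 6 promoters of sterol synthesis genes that rose (1.18% of all promoters). The windows of Cxcl3 (chr5:90785981-90786100, plus strand), Cxcl2 (chr5:90903779-90903898, plus strand) and Nfkbia (chr12:55492648-55492767, minus strand) are given to show where the NF-kB site, in capitals, lies. They are the 120 bases before the start and were picked for holding a match.
Cxcl3: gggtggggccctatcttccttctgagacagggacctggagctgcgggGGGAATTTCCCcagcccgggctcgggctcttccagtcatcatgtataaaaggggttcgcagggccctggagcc
Cxcl2: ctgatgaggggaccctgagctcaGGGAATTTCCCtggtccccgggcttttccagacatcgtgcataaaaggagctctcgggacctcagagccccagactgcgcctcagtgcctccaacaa
Nfkbia: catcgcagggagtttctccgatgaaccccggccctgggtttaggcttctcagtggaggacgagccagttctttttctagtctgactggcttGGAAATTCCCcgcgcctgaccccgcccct
Cxcl3 and Cxcl2 hold the same letters at the site. The counts behind these shares are small, and 3 of the 14 genes of the group had no promoter in the table. The group includes a list chosen as feedback genes of NF-kB, so a high share of NF-kB sites can come from the choice of genes. Promoters of members that did not pass were not counted, so the share cannot be tied to the rise after scratching.

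Among prostaglandin genes a synthesis enzyme rose strongly, and genes of breakdown and uptake went both ways. Ptgs2, the inducible cyclooxygenase that makes the prostaglandin precursor, read 7.58, 7.67, 7.59 and 7.78 uninjured and 10.71, 10.24, 10.26 and 9.58 scratched (2.54, SE 0.19, adjusted p = 3.5e-06). Scratched 4 was the lowest of its group and still far above the highest uninjured array, and a dimmer probe set gave 2.80. Akr1c14, an aldo-keto reductase of steroids and prostaglandins, fell from 10.60 to 10.87 on the uninjured arrays to 9.37 to 9.77 on the scratched ones (-1.20, SE 0.11, adjusted p = 1.2e-05). Hpgd, the main enzyme of prostaglandin breakdown, read 6.89 to 7.32 uninjured and 7.38 to 7.84 scratched (0.58, SE 0.14, adjusted p = 0.031), and a further reductase, Akr1c18, rose by 0.46 (SE 0.11, adjusted p = 0.03). Both calls were lost with any array but uninjured 2 or scratched 3 left out (adjusted p up to 0.092 and 0.093). Slco2a1, the transporter that takes prostaglandins up, fell by 0.43 on the log2 scale (SE 0.10, adjusted p = 0.023), a call lost with any array but uninjured 4 or scratched 3 left out (adjusted p up to 0.076). The phospholipase Pla2g4a, which frees the precursor fatty acid, rose by 0.40 (SE 0.08, adjusted p = 0.013). Ptges, the terminal synthase of prostaglandin E, differed by -0.09. Across the list of 29 genes 4 rose and 2 fell, and 3 of these 6 calls, among them Ptgs2 and Akr1c14, held with any 1 array left out.

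A minority of mucus and antimicrobial genes rose, some of them strongly. Of 31 mucus and goblet cell genes 5 rose and 1 fell, with a median of 0.10, and 3 of the 5, including Muc5b and Agr2, held with any 1 array left out. The membrane mucin Muc4 rose by 0.35 (SE 0.06). Muc5ac, the inducible mucin of goblet cells, was at or below background in both groups (2.91 and 2.84), and Spdef, the transcription factor of goblet cells, differed by 0.16 (SE 0.11, adjusted p = 0.55). Of 38 secreted host defence genes 8 rose and 0 fell; besides Dmbt1, Wfdc1 and Calcb these included the adhesion molecule Ceacam1 (0.83, SE 0.08) and, by less, the siderophore binder Lcn2, which read 14.88 to 15.05 uninjured and 15.07 to 15.26 scratched (0.26, SE 0.05, adjusted p = 0.0044). Without scratched 3 and 4 the number was 4 and Lcn2 was no longer called. Dimmer probe sets of Ceacam1 gave 0 to 0.83, and its call was lost with the mean of all probe sets (0.36, limma adjusted p = 0.34). Lactoferrin (Ltf), another bright secreted protein, differed by 0.15 (SE 0.07, adjusted p = 0.29).

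Some genes of club cells, the secretory cells that metabolise foreign compounds, fell. Of 27 genes 7 fell and 2 rose. Gabrp, a GABA receptor subunit of airway secretory cells, read 11.55 to 11.85 uninjured and 10.71 to 11.09 scratched (-0.74, SE 0.10, adjusted p = 6e-04). The oxidising enzymes Fmo2 (11.52 to 11.77 and 10.89 to 11.01; -0.70, SE 0.09), Aldh3a1 (12.28 to 12.59 and 11.51 to 12.03; -0.65, SE 0.11) and Cyp4b1 (-0.49, SE 0.06) and the glutathione transferase Gsta4 (-0.35, SE 0.05) fell as well, with no overlap of the groups. The secretoglobins did not pass: Scgb1a1 differed by -0.42 (SE 0.19, limma adjusted p = 0.28), Scgb3a1 by 0.15 (SE 0.17) and Scgb3a2 by -0.13 (SE 0.11). The estimate of Scgb1a1 was larger than that of Gsta4 and lay between -0.54 and -0.34 in the other settings. Scgb1a1 therefore cannot be read as unchanged. Aldh1a7, another enzyme gene of the list, went the other way. It read 10.86 to 11.12 uninjured and 11.40 to 11.68 scratched (0.55, SE 0.10, adjusted p = 0.005). Without scratched 3 and 4, 6 genes of the list fell and 0 rose. In the wider list of 47 genes of xenobiotic metabolism and the antioxidant factor NRF2, 8 fell and 7 rose. The metallothioneins Mt2 and Mt1, which bind zinc and copper, were the clearest increases: Mt2 read 9.33 to 9.52 uninjured and 10.59 to 10.87 scratched (1.29, SE 0.12) and Mt1 rose by 0.94 (SE 0.06, adjusted p = 1.4e-06). The NRF2 targets Nqo1, Hmox1 and Gclc, at -0.06, 0.13 and 0.16, did not pass.

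Keratins of basal and of luminal cells each changed in both directions. Krt5, the keratin of basal cells, read 11.13, 11.10, 11.22 and 11.26 uninjured and 10.51, 10.25, 10.56 and 10.17 scratched (-0.80, SE 0.09, adjusted p = 0.00015). Trp63, the basal cell transcription factor, read 9.01 to 9.29 and 8.50 to 8.80 (-0.48, SE 0.09, adjusted p = 0.0049), a call lost without scratched 3 and 4. Krt14 differed by -0.36 (SE 0.15, adjusted p = 0.23), and its scratched arrays ran from 9.14 to 9.94 around the uninjured 9.76 to 9.89. Krt17, a further keratin of the basal list, went the other way, from 8.74 to 9.23 uninjured to 9.52 to 9.98 scratched (0.71, SE 0.16, adjusted p = 0.018). Its call was lost without uninjured 1 or 2 or scratched 3 (adjusted p up to 0.06) and without both scratched 3 and 4 (adjusted p = 0.15). In the luminal pair Krt8 read 12.93 to 13.01 uninjured and 13.34 to 13.59 scratched (0.51, SE 0.06), and its partner Krt18 read 12.07 to 12.25 and 12.70 to 12.81 (0.60, SE 0.06, adjusted p = 2.6e-05). Krt23, a further type I keratin, rose by 1.01 (SE 0.09, adjusted p = 1.2e-05), and Krt19 read 14.58 and 14.63 on average. The luminal keratin Krt7 read 13.86 to 13.97 uninjured and 13.38 to 13.66 scratched (-0.39, SE 0.09, adjusted p = 0.026), a call lost with any array but scratched 4 left out (adjusted p up to 0.077). Of 31 basal cell genes 5 fell and 1 rose (16.1% and 3.23%), and of 11 luminal keratins 3 rose and 1 fell (27.3% and 9.09%). Sprr1a, a cornified envelope protein that squamous and injured epithelia make, read 9.08 to 9.27 uninjured and 10.14 to 11.09 scratched (1.5, SE 0.24, adjusted p = 0.0017), whereas 32 of the 36 squamous genes did not pass, Ivl (involucrin) among them at 0.20 (SE 0.22).

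Few multiciliated cell genes passed the test. Of 55 measured genes 4 fell (7.27%), 1 rose (1.82%) and 50 did not pass. The median of the list was -0.04. Foxj1, the master factor of motile cilia, read 8.94 to 9.14 uninjured and 8.24, 8.73, 8.80 and 9.0 scratched (-0.34, SE 0.12, adjusted p = 0.15). Genes of the stage at which centrioles are multiplied were among those that fell, namely Deup1 (-0.58, SE 0.08), which builds centrioles, and the transcription factor Myb (10.09 to 10.33 and 9.64 to 9.85; -0.54, SE 0.06, adjusted p = 5.4e-05). Both held in every setting tried. Without scratched 3 and 4, 7 genes of the list fell. Of 20 markers of tuft, neuroendocrine and ionocyte cells 6 were above background, 2 rose (Cftr and Calcb) and 1 fell. The factors Foxi1 of ionocytes (2.25) and Pou2f3 of tuft cells (2.24) were below background. Dclk1, often used as a tuft cell marker, was bright and fell in every scratched array (9.62 to 9.91 and 8.46 to 8.94; -1.12, SE 0.14, adjusted p = 0.00032); 6 dimmer probe sets gave -1.26 to -0.58 and another pair, both below background, 0.05 and 0.

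Single matrix and cytoskeleton genes rose strongly. Fn1 (fibronectin), the core of provisional matrix, read 8.24 to 8.49 uninjured and 10.40 to 10.64 scratched (2.16, SE 0.11, adjusted p = 1.4e-07), with 2.75 by a dimmer probe set. Tnc (tenascin C), a matrix protein of healing edges, read 3.22 to 3.67, little above background, and then 4.94 to 5.50 (1.87, SE 0.23). The collagen Col5a2 rose by 1.32 (SE 0.22) and the crosslinking enzyme Tgm2 by 0.33 (SE 0.05). Of 42 matrix genes 6 rose (14.3%), 0 fell and 36 did not pass (median 0.05). Of 49 genes of integrins and focal adhesions, the sites where actin pulls on matrix, 12 rose (24.5%), 2 fell and 35 did not pass (median 0.02). Actn1 (alpha-actinin), which bundles actin at these sites, read 9.92 to 10.11 uninjured and 10.67 to 10.90 scratched (0.84, SE 0.07, adjusted p = 5.1e-06). The formin Diaph3 (1.14), the adhesion protein Fhl2 (0.91), the actin capping protein Capg (0.76) and the bundling protein Fscn1 (0.75, with -0.13 to 0.22 in dimmer probe sets) rose, and another formin, Fhod3, read 6.19 to 6.79 uninjured and 4.18 to 5.52 scratched (-1.46, SE 0.26, adjusted p = 0.0045).

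Enzymes and junctions of the wound edge changed in few genes. Of 35 metalloproteinases and inhibitors 1 rose (Timp1, 0.78, SE 0.20) and 1 fell (Adam28, -0.32), and neither call was firm: Timp1 lost it with any wild-type array but scratched 1 left out (adjusted p up to 0.12) and Adam28 without uninjured 2 or 4 or scratched 1, 2 or 3 (adjusted p up to 0.076). Mmp9 and the plasminogen activators Plau and Plat, at 0.05, 0.03 and 0.05, did not pass. F3 (tissue factor), which starts coagulation, read 12.95 to 13.11 uninjured and 13.38 to 13.78 scratched (0.59, SE 0.08), and Procr read 6.65 to 6.82 and 8.20 to 8.64. Of 40 junction genes 3 rose and 5 fell (7.5% and 12.5%). Cldn1, a sealing claudin, was at background on uninjured arrays (2.93 to 3.02) and read 3.69, 4.27, 4.14 and 4.85 on scratched ones (at least 1.25 higher on the log2 scale, since the uninjured level is at background; SE 0.27, adjusted p = 0.016), a call lost without scratched 3 and 4. Cldn23 fell by 0.81 on the log2 scale (SE 0.08) and Jup (plakoglobin), which links desmosomes to keratin, by 0.46 (SE 0.06). Cdh1 (E-cadherin), at 0.01, and the mesenchymal factors Snai2 and Zeb1, at -0.02 and 0.11, did not pass.

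Most genes of early wound signals did not pass the test at the time sampled. Of 37 AP-1 and immediate early factors 5 rose, 6 fell (13.5% and 16.2%) and 26 did not pass. A positive estimate was seen in 25, and the median was 0.10. The 6 that fell were the 4 Id genes, Hes1 and the factor Klf4 (-0.44, SE 0.09, limma adjusted p = 0.01, lost without scratched 3 and 4). The Id genes and Hes1 are described below as genes of BMP and Notch signalling, so the falls in this list do not describe the AP-1 factors. The 5 that rose did so by 0.46 at most, and 0 of them held with any 1 array left out. Among these, Nr4a2, an orphan nuclear receptor, rose by 0.46 (SE 0.12, adjusted p = 0.043) and lost its call without any array but scratched 3 (adjusted p up to 0.11), with -0.02 to 0.25 by dimmer probe sets. Fosl2 rose by 0.35 (SE 0.08, adjusted p = 0.02) and lost its call without uninjured 1 or 4 or scratched 3 (adjusted p up to 0.059). The classical members did not pass: Fos differed by 0.31 (SE 0.09, adjusted p = 0.069), Jun by 0.20 and Egr1 by 0.02, and Fosl1 lay below background in uninjured cultures. Feedback genes split. Dusp1, a stress-induced phosphatase of MAP kinases, read 10.62 to 10.88 uninjured and 11.41 to 11.88 scratched (0.93, SE 0.11, adjusted p = 0.00025), while Dusp6, the phosphatase of ERK, read 9.50 to 9.81 and 9.06 to 9.38 (-0.44, SE 0.09, adjusted p = 0.011, lost without scratched 3 and 4). Of 23 MAP kinase feedback genes 3 rose and 5 fell (13% and 21.7%). The epidermal growth factor ligand Hbegf differed by 0.49 (SE 0.18, adjusted p = 0.18); scratched 4, at 7.99, lay within the uninjured range of 7.82 to 8.28 and the other scratched arrays at 8.63 to 8.86. The targets of the mechanical sensors YAP and TAZ that rose were Ccn1 (7.99 to 8.45 and 9.59 to 9.94; 1.57, SE 0.12) and Ccn2 (11.54 to 11.65 and 12.12 to 12.28; 0.61, SE 0.08), both matricellular proteins. Of the 24 genes of this list 3 rose and 2 fell.

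The 4 Id genes, which answer bone morphogenetic proteins (BMPs), fell. The Id proteins are inhibitors of helix-loop-helix factors and standard readouts of BMP signalling. Id3 read 7.62, 7.67, 7.60 and 7.99 uninjured and 6.62, 6.70, 6.63 and 6.56 scratched (-1.09, SE 0.19, adjusted p = 0.0037). Id1 read 9.96 to 10.42 and 9.29 to 9.58 (-0.69, SE 0.12), Id4 9.71 to 9.84 and 8.70 to 9.19 (-0.84, SE 0.09) and Id2 11.68 to 11.79 and 10.99 to 11.26 (-0.62, SE 0.08). All 4 fell in every setting tried, with no overlap of the groups. The ligand Bmp4 read 7.58 to 7.94 uninjured and 6.78 to 6.98 scratched (-0.84, SE 0.17, adjusted p = 0.011; lost without scratched 3 and 4), and Tgfb2 read 12.01 to 12.28 and 11.26 to 11.42 (-0.78, SE 0.09). Of the 45 genes of the pathway 8 fell, 3 rose and 34 did not pass (median -0.01). Those that rose included Inhba (0.75, SE 0.15), the subunit of the ligand activin A, and Fst (1.67, SE 0.36), follistatin, which binds activins and BMPs. Fst lost its call without uninjured 4, scratched 1 or scratched 3 (adjusted p up to 0.057). Smad7 (0.07) and Tgfb1 (0.05) did not pass.

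Notch and Wnt genes changed singly. Of 25 Notch genes 1 rose and 3 fell: the target Hey1 read 5.88 to 6.26 uninjured and 6.64 to 7.12 scratched (0.77, SE 0.15), and the target Hes1 read 8.61 to 8.91 and 8.03 to 8.39 (-0.52, SE 0.10), so these targets moved apart. Both calls were lost without scratched 3 and 4. Of 38 Wnt genes 2 fell and 1 rose (5.26% and 2.63%). Among all genes above background 3.58% fell and 3.95% rose, so the Wnt counts are near those shares. Lgr6, the R-spondin receptor of epithelial stem cells, read 9.36 to 9.59 uninjured and 8.38 to 8.85 scratched (-0.88, SE 0.13, adjusted p = 0.0011), and Porcn, outside the list, the enzyme that acylates Wnt proteins for secretion, read 7.79 to 7.90 and 6.49 to 7.19 (-0.91, SE 0.12). The common target Axin2 was below background.

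Ion transport showed large opposite changes in potassium channel genes. Kcne2, a regulatory subunit of voltage-gated potassium channels, read 5.26, 6.16, 5.84 and 5.32 uninjured and 8.31, 8.64, 8.37 and 8.32 scratched (2.77, SE 0.27, adjusted p = 3.2e-05). Kcnk2, a potassium channel opened by stretch, read 7.19, 7.13, 6.38 and 6.01 uninjured and 4.95, 4.59, 4.05 and 4.84 scratched (-2.07, SE 0.31, adjusted p = 0.001), the largest decrease that passed. Every scratched array of the one was above, and of the other below, every uninjured array. The inward rectifier Kcnj15 rose by 1.23 (SE 0.12). Of 29 potassium channel genes 4 rose and 1 fell (13.8% and 3.45%). Of 33 genes of sodium, chloride and water transport 4 rose and 4 fell (12.1% each). Slc12a2, the cotransporter that loads chloride for secretion, read 11.12 to 11.34 uninjured and 10.45 to 10.82 scratched (-0.53, SE 0.07). The chloride channel Cftr read 3.83 to 4.09 and 4.44 to 5.59 (1.08, SE 0.27, adjusted p = 0.038), but this call was lost with any 1 of 6 arrays left out (all but scratched 1 and 3; adjusted p up to 0.099). The amino acid transporter Slc6a15 fell by 1.5 on the log2 scale (SE 0.30), with scratched 3 lowest at 3.76.

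Of 25 genes of cholesterol synthesis and its control 9 rose (36%), 2 fell and 14 did not pass (median 0.25); without scratched 3 and 4, 8 rose and the median was 0.32. Tm7sf2, a sterol reductase, read 6.67 to 7.02 uninjured and 7.73 to 8.14 scratched (1.07, SE 0.09, adjusted p = 7e-06). Hsd17b7, a later enzyme, read 7.18 to 7.53 and 8.04 to 8.64 (0.99, SE 0.13), Mvd of the mevalonate branch rose by 0.65 (SE 0.10), and Fdft1, which commits the pathway to sterols, read 9.18 to 9.25 and 9.71 to 10.02 (0.64, SE 0.07). The early enzyme Hmgcs1 (0.23, SE 0.09, adjusted p = 0.19) and the regulator Srebf2 (0.06, SE 0.08) did not pass. Of 28 fatty acid genes 5 rose and 1 fell, led by the phosphatidate phosphatase Lpin1 (8.29 to 8.47 and 8.80 to 9.22; 0.65, SE 0.08). Of 34 glycolysis and hypoxia genes 4 rose and 3 fell: the hypoxia-regulated Ndrg1 (0.97, SE 0.11) and hexokinase 2, Hk2 (0.49, SE 0.07), were higher and the phosphofructokinase subunit Pfkl (-0.55, SE 0.08) lower, while Ldha, at 0.02, did not pass.

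In several further lists few genes passed the test. No gene passed among 14 of antigen presentation, 20 of the heat shock response or 20 of the circadian clock. Among 43 genes of oxidative phosphorylation 1 rose and 1 fell (median 0.03), and among 33 ribosomal protein genes 0 rose and 1 fell (median -0.09). Of 36 genes of protein folding and the unfolded protein response 2 rose, and the chaperone Hspa5 read 13.41 and 13.43 in the group means. Of 45 interferon response genes 2 rose: Ifi27l2a, with 6.70, 5.95, 6.81 and 6.05 uninjured and 8.90, 8.31, 9.87 and 9.21 scratched (2.70, SE 0.48, adjusted p = 0.0046; lost without scratched 3 and 4), and Ifitm1 (0.94, SE 0.12). The interferon regulator Irf7 differed by 0.57 (SE 0.42). Of 27 genes of p53 and apoptosis 3 rose and 1 fell, with the stress gene Gadd45a at 0.87 (SE 0.09) and the apoptosis inhibitor Birc3 at 0.61 (SE 0.08; 0.04 by a dim probe set).

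**Figure D4:**
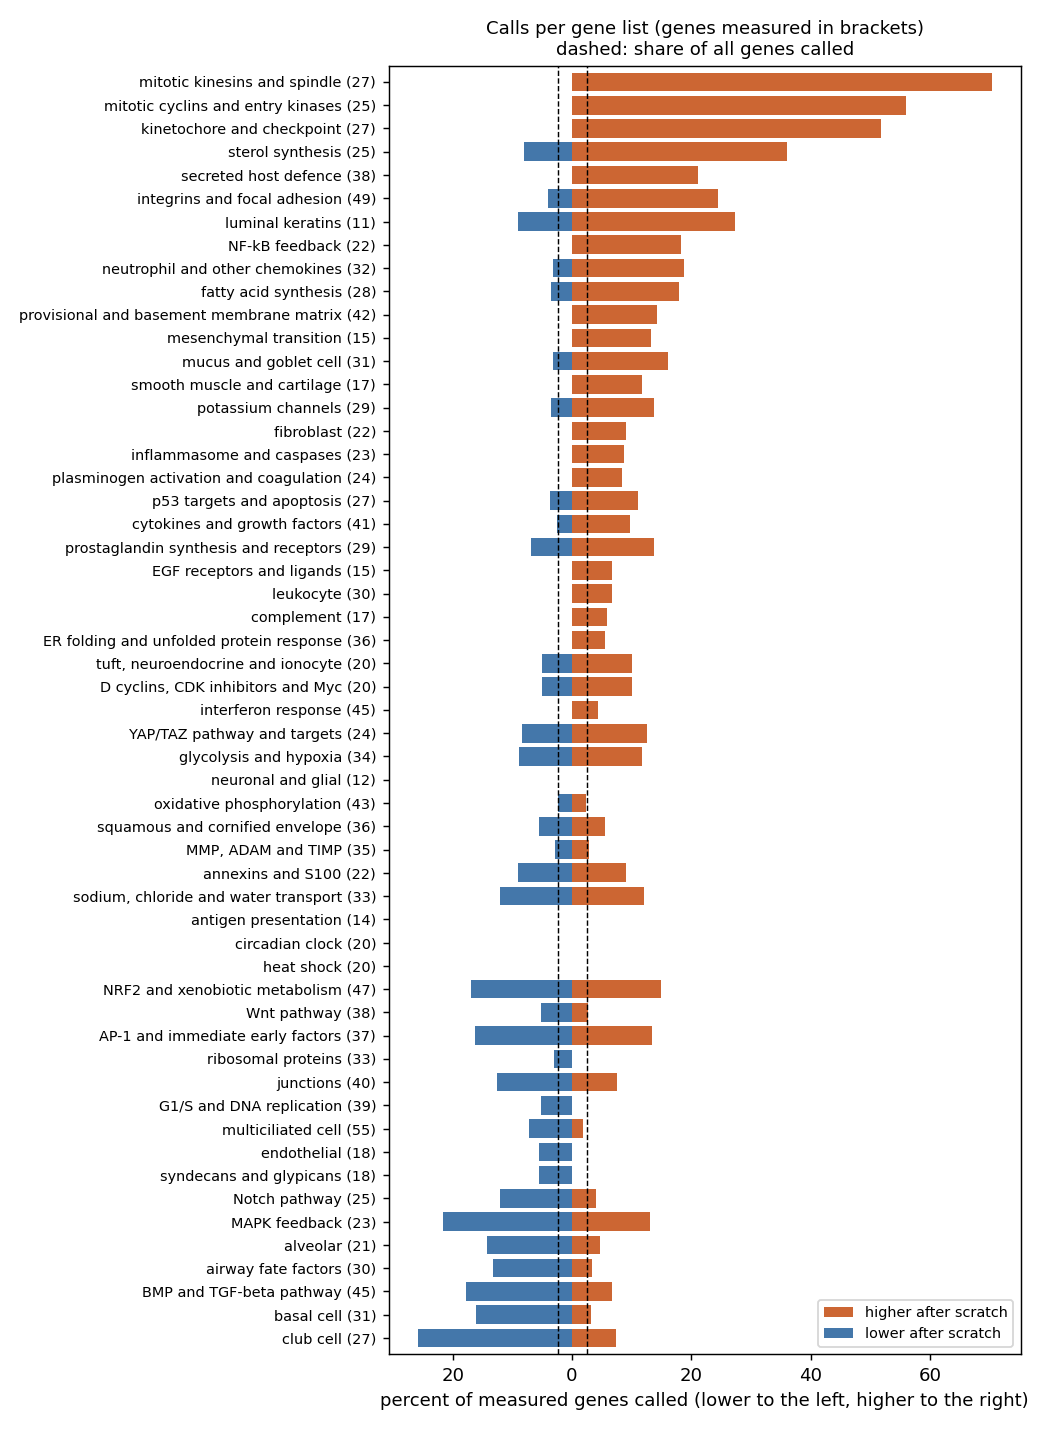
Percent of the measured genes of each list that were called higher (right) or lower (left) in scratched against uninjured wild-type cultures, with the share of all genes called (2.55% higher, 2.30% lower) as dashed lines. The 3 mitotic lists reach 51.9% to 70.4% higher; the next, sterol synthesis, reaches 36%.

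The largest decreases were of genes with varied roles. Rasl11a, a small GTPase, read 4.30 to 4.79 uninjured and 3.14 to 3.45 scratched (-1.35, SE 0.10, adjusted p = 3.6e-06). Ppp2r2b, a regulatory subunit of protein phosphatase 2A, read 4.70, 5.15, 5.08 and 5.08 uninjured and 3.62, 3.74, 3.97 and 3.03 scratched (-1.41, SE 0.26, adjusted p = 0.0057). Irs1, the docking protein of the insulin receptor, read 7.36 to 7.60 and 6.27 to 6.67 (-0.98, SE 0.08, adjusted p = 9.7e-06). In each the scratched arrays were all lower, and Rasl11a and Ppp2r2b ended near background, so their falls can be read only in part. The transcription factor Osr1 (-1.05, SE 0.13), the Mediator subunit Med24 (-1.07, SE 0.11) and Pid1 (-0.90, SE 0.09) fell in every setting tried. H3f3b fell by 1.29 on the log2 scale (SE 0.33, adjusted p = 0.038), but this histone gene has near-identical copies and lost its call with any 1 of 6 arrays left out (all but uninjured 1 and scratched 4; adjusted p up to 0.11).

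Markers of other cell types moved with the scratch in a few genes. Of 30 leukocyte markers 9 were above background and 2 rose: Cd68, a lysosomal protein of macrophages, read 6.40 to 6.83 uninjured and 7.54 to 7.83 scratched (1.03, SE 0.14), and Cd14, a receptor for bacterial lipopolysaccharide, rose by 0.37 from 13.13. The summed intensity of the list ran from 13.91 to 14.18 on the log2 scale in uninjured and from 14.28 to 14.53 in scratched cultures. Bright genes weigh most in such a sum, and Cd14 alone averaged 13.13 uninjured and 13.50 scratched. The sum therefore does not show a shift across the list, and Ptprc stayed below background (2.36 and 2.38). Of 22 fibroblast markers 6 were above background and 2 rose, Col5a2 and the proteoglycan Dcn (decorin, 4.02 to 4.73 and 5.84 to 6.27; 1.58, SE 0.20, with 0.07 by a dim probe set). Their sums were 8.08 to 8.11 and 8.48 to 8.92, and Col1a1 and Pdgfra stayed near background (2.72 and 2.98 in scratched cultures). Of 17 smooth muscle and cartilage markers 2 rose, among them the actin Acta2 (5.87 to 6.48 and 7.06, 7.15, 7.85 and 7.02; 1.07, SE 0.26), a call lost with any 1 of 5 arrays left out (uninjured 1, 2 and 4, scratched 2 and 3; adjusted p up to 0.099) and without both scratched 3 and 4 (adjusted p = 0.17). Their sums were 9.80 to 9.93 and 10.23 to 10.55, and Myh11 stayed at 3.13 and 3.15. On scratched 3 alone the cartilage collagen Col2a1 read 4.63 against 2.31 to 2.32 on the other scratched arrays, and the neuronal tubulin Tubb3 4.80 against 2.95 to 3.01. The part of such cells in the rises of Fn1, Tnc, Col5a2 and Dcn was not tested. Endothelial sums were 7.16 to 7.40 and 6.98 to 7.19, neuronal ones 10.02 to 10.07 and 10 to 10.13, and alveolar ones 15.71 to 15.77 and 15.67 to 15.82. Of the 21 alveolar markers 18 were above background, 1 rose and 3 fell.

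The same scratch was compared with its effect in cultures lacking Mmp7, as the difference between the responses (wild-type minus Mmp7-null). It passed for 24 of 18193 genes (0.132%), 19 with the more positive response in wild type and 5 with the more negative one; 1417 had an unadjusted p under 0.05. The secreted protease inhibitor Slpi read 10.07, 10.16, 10.11 and 10.18 uninjured and 10.34, 10.33, 10.54 and 10.60 scratched in wild type (0.32, SE 0.08), and 10.18, 10.32, 10.13 and 10.07 and then 9.69, 9.51, 9.40 and 9.65 in Mmp7-null cultures (-0.61, SE 0.08). It thus rose in every scratched wild-type array and fell in every scratched Mmp7-null one, a difference of 0.94 (adjusted p = 0.0061). The wild-type rise alone lost its call with any 1 of 5 arrays left out (uninjured 1, 2 and 3, scratched 3 and 4; adjusted p up to 0.077). Arrdc3, an arrestin-like adaptor, rose by 0.50 in wild type and fell by 0.28 in Mmp7-null cultures (difference 0.78, adjusted p = 0.008). Avpi1, a vasopressin-induced protein named here for its adjusted p, seen in the data, rose by 0.86 (SE 0.06) against 0.17 (SE 0.06), a difference of 0.68 (adjusted p = 0.0061). Rasl11a fell by 1.35 on the log2 scale against 0.18, a difference of -1.18 (adjusted p = 0.008); in Mmp7-null cultures it started at 3.15 to 3.43, near background, where a fall cannot be read. These 4 genes passed in 17 of 18 other settings, all but the replicate block.

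Among the genes with the larger differences were several already described. Agr2 rose by 2.54 in wild type and by 1.44 in Mmp7-null cultures (difference 1.10, adjusted p = 0.043), from 9.10 to 9.72 to 10.72 to 11.26 in the latter, and Fabp5 rose by 2.06 against 1.27 (difference 0.78, adjusted p = 0.019). Of the mitotic genes the kinesin Kif2c (1.40 against 0.35) and the abscission protein Cep55 (1.27 against 0.44) differed by 1.05 and 0.83 (adjusted p = 0.043 and 0.037). The median over the mitotic kinesins and spindle proteins was 0.96 in wild type and 0.51 in Mmp7-null cultures, while 1 of the 27 passed the test of the difference. Cd68 rose by 1.03 in wild type and was at -0.08 (SE 0.14) without Mmp7 (difference 1.12, adjusted p = 0.043), and Med24 fell by 1.07 on the log2 scale in wild type and was at -0.03 (SE 0.11) without Mmp7 (difference -1.04, adjusted p = 0.019). These calls were unequally firm: over 18 other settings Agr2 passed in 3 and was lost with any 1 wild-type array left out, Kif2c passed in 5, Cd68 in 6, Cep55 in 9, Fabp5 in 15 and Med24 in 16. The leading defence genes showed no difference that passed. Ppbp rose by 4.62 and 3.87 (limma adjusted p of the difference 0.75), Muc5b by 3.26 and 2.64 (0.76) and Ptgs2 by 2.54 and 2.08 (0.73). The SE of the difference was 0.56 for Ppbp, 0.67 for Muc5b and 0.27 for Ptgs2, so differences of that size would not have been seen. The spiked-in control sets differed between the genotypes. Of the 8 Mmp7-null arrays 4 belong to a set with no wild-type array. Replicates 2 to 4 of each wild-type group belong to a set with no Mmp7-null array, and only replicate 1 shares a set with Mmp7-null arrays. A set effect on the levels of a genotype therefore cannot be told apart from genotype. The sets were spread equally over the scratched and uninjured arrays of each genotype.

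**Figure D5:**
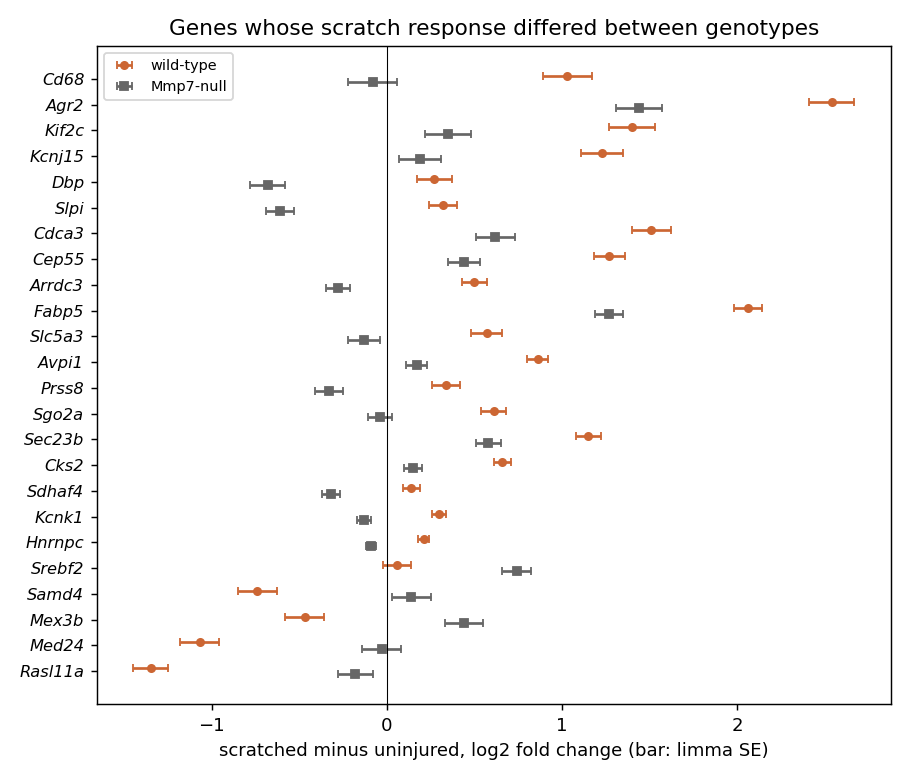
Log2 fold change of scratched over uninjured cultures with the limma standard error for the 24 genes whose scratch response differed between genotypes, in wild-type (circles) and Mmp7-null cultures (squares), 4 arrays per group. Slpi lies at 0.32 and -0.61, Agr2 at 2.54 and 1.44 and Rasl11a at -1.35 and -0.18.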

How the data were processed

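The deposited table holds 1 intensity per probe set and array on a linear scale, made by the authors with RMA (background correction, normalization and summary of probes), per the submitters' processing notes; its version and software are not given in the sources used here. The 45101 probe sets listed are those of a larger mouse array than the one the labels name, and were used as they are. No scanner files were used.

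Intensities were converted to log2 with no further normalization. Leaving out controls, 45037 probe sets remained; GEO's platform annotation gave 34945 of them 1 gene symbol, 932 several and 9160 none; the last 2 kinds were left out. For each of 18193 genes the probe set brightest on average across the 16 arrays was kept; 9010 genes had more than 1. Group means were modelled jointly on the 16 arrays (12 residual degrees of freedom) with limma 3.58.1 in R 4.3.3 and eBayes. P-values were adjusted by Benjamini-Hochberg over all genes, with a threshold of 0.05; the median SE was 0.10. Depth has no meaning for arrays: their number limits the precision. The script was tested on simulated data.

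The comparison, its members and the 56 gene lists (1508 measured genes) were chosen with earlier results of these data known, so lists are described by counts and medians, with no test. The naming rule takes the 25 largest called increases and decreases with no overlap of the groups, up to 6 called genes per list, fixed list markers, up to 15 genes of the genotype difference, Mmp7 and genes with a probe set of opposite sign; the text names part of these, and Avpi1, Cdc20, Cks1b and Edn1 were chosen after their values were seen. Alternatives changed the arrays used, a block, the filter, the probe sets, the scaling, the offset, the variance model and array weights. Same-numbered scratched and uninjured arrays deviated together with r of -0.11, 0.14, 0.31 and -0.04, and arrays of different number with r of -0.39 to 0.23. The labels do not say whether the numbers pair the cultures, and these few values cannot decide it. Promoters are RefSeq's (GRCm38.p6).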

Additional observations from a re-analysis of the deposited data

Results flagged for a closer look

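Within a group of 4 arrays, 1 array lay apart from the other 3 by Dixon's criterion (a gap to the nearest array that takes most of the range) in 37 of the 404 groups formed by the genes named in the text and the 2 wild-type groups. Chance gives such a reading in about 1 in 20 groups. Of the 37, 15 were on scratched 3, the array with the lowest upper quartile of intensity.

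On scratched 3 genes of other tissues were high. Col2a1 of cartilage read 4.63 against 2.32 on the nearest scratched array, Tubb3 of neurons 4.80 against 3.01, and Acta2 of smooth muscle 7.85 against 7.15. The mitotic genes Bub1 (6.01 against 6.92) and Ccnb2 (7.68 against 7.98) were low there, as was the prostaglandin enzyme gene Hpgd (7.38), and Slco2a1 (7.95) was high. The remaining 8 genes differed little and were below background on this array: Axin2 read 2.34, Cdh5 2.37, Col1a1 2.83, Foxi1 2.31, Mmp7 2.25, Pecam1 2.14, Pou2f3 2.38 and S100a8 2.55.

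On the other scratched arrays, Lcn2 (15.07, the lowest) and Myb (9.85, the highest) stood apart on scratched 1. Kcne2 (8.64), Sdc1 (13) and Zeb1 (3.55) were high on scratched 2, and Gclc was low on scratched 4 (12.51 against 13.07).

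Among uninjured arrays, Krt8 (13.01), Myh11 (3.20) and Tgfb1 (5.73) were high and Ppp2r2b (4.70) and Serping1 (6.61) low on uninjured 1. Axin2 (2.40), Il1b (3.23) and Slc12a2 (11.34) were high and Inhba (4.94) low on uninjured 2. F3 (13.11) was high and Cenpf (5.02), Dclk1 (9.62), Mycl (8.03) and Nfkbiz (10.60) low on uninjured 3. Id3 (7.99) and S100a1 (11.56) were high on uninjured 4.

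The response itself differed between genotypes in 12 genes named in the text, by the limma test of the difference (log2 response of wild type minus that of Mmp7-null cultures). It was more positive in wild type for Cd68 (1.12), Agr2 (1.10), Kif2c (1.05), Kcnj15 (1.04), Slpi (0.94), Cep55 (0.83), Arrdc3 (0.78), Fabp5 (0.78) and Avpi1 (0.68). It was more negative for Rasl11a (-1.18), Med24 (-1.04) and Srebf2 (-0.67). Rasl11a was near background in Mmp7-null cultures, where a fall cannot be read, so the size of its difference is set in part by that floor. All of these calls were lost with the replicate number as a block, and over 18 alternatives they were kept in between 3 (Agr2) and 17 (Arrdc3, Avpi1, Rasl11a and Slpi).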

How the results depend on the processing

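None of the 142 called genes named in the text reversed under the alternatives each was run in; genes that were not called can change sign (Myc from -0.16 to 0.12). Genes called numbered 418 with replicates 2 to 4 of each wild-type group alone (1 spike-in set, fewer arrays compared) and 1405 with array weights; leaving out 1 array gave 591 to 884. Increases numbered 276 and 722 in the same settings (334 to 445 leaving out 1 array). Decreases were the less stable direction: 142 and 683 in those settings, 275 with the replicate number as a block, 266 without scratched 3 and 4, and 233 to 497 leaving out 1 array (245 and 233 without uninjured 1 and 2, 267 and 243 without scratched 1 and 3); the cause was not tested. The replicate block left 620 calls in all, and whether the numbers pair the cultures is not known. For the difference between genotypes, 24 genes became 0 with the block, 37 without the dimmest 40% of genes, 5 with arrays centred on their median, 49 with quantile normalization repeated, 15 with an offset of 16 added to intensities, 100 with array weights and 37 without scratched 3 and 4, and 12 to 28 leaving out 1 array, so this count depends on the setting. It was not refitted on wild-type arrays alone. A trended variance, the spike-in set as a block and the mean of all probe sets changed no count by over 1.5 times. Another background correction could not be tried, since it needs scanner files. The number of arrays (4 per group) limits the precision, and a gene near background can show only part of a fall.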

Other observations

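Some gene groups outside the comparisons above also bear on this tissue. Syndecans and glypicans carry heparan sulfate chains that hold chemokines at the cell surface, and syndecan-1 is known as a substrate of matrilysin. Sdc1 differed by -0.19 (SE 0.06, limma adjusted p = 0.093), Sdc4 by 0.13 and Gpc1 by -0.06, and of 18 genes of this kind and of their sulfation enzymes 0 rose and 1 fell (Hs6st2, -0.41, SE 0.09, adjusted p = 0.016). The call of Hs6st2 was lost without uninjured 2 (adjusted p = 0.051) and without scratched 3 and 4 (adjusted p = 0.15). Of 17 complement genes 1 rose: Serping1, the inhibitor of C1 esterase, read 6.61, 6.84, 6.86 and 6.86 uninjured and 7.42, 7.56, 7.68 and 8.02 scratched (0.88, SE 0.16, adjusted p = 0.0046), a call lost without scratched 3 and 4 (0.70, adjusted p = 0.058).

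Calcium-binding annexins and S100 proteins showed no common direction, with 2 of 22 higher and 2 lower. Anxa5 and Anxa8 fell by 0.30 and 0.35 on the log2 scale, S100a13 and S100a1 rose by 0.35 and 0.31 (adjusted p = 0.11 and 0.10 without scratched 3 and 4), and the neutrophil alarmin gene S100a8 was below background on all 8 arrays.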
